A study of Mus musculus with 8 samples.

Results

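Podocytes in whole mouse kidney were examined here in single-cell RNA sequencing data from Control kidneys and from kidneys after unilateral ureteric obstruction (UUO). The 126 podocytes are all cells that the authors' deposited annotation places in the class Podo, out of 77393 cells in 28 classes. Of these, 102 came from 46070 cells of 6 Control samples and 24 from 31323 cells of 2 UUO samples. The class name is the authors' own: gene-level counts are not analysed here, so Nphs1, which encodes the slit diaphragm protein nephrin and would mark these cells, could not be checked.

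Podocytes are the epithelial cells that wrap the capillaries of the glomerulus, the kidney's filter. Their interlocking foot processes are bridged by the slit diaphragm, which together with the glomerular endothelium and a shared basement membrane retains plasma proteins in the blood. They are highly specialised cells that rarely divide, and their loss is a feature of many glomerular diseases. Ureteric obstruction is used mainly as a model of injury to the tubules and of fibrosis between them.

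All samples were adult whole kidney of C57BL/6 mice aged 7 weeks, labelled either control or unilateral ureteric obstruction. No transgene, Cre allele or other genetic change is named for either group. The protocol text gives ligation of the left ureter and killing on day 7 in the same words for every sample, so what was done to the Control animals, sham surgery included, is not given in the labels or protocols used here. No label says whether samples came from separate animals or from pools, and the p-values reflect the spread of these samples alone, part of which may be technical.

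Each deposited cell comes with its UMIs (unique transcript molecules), the number of genes detected and the percent of UMIs from mitochondrial genes. Samples held 2263 to 18393 cells and 4375942 to 56755823 UMIs. Controls 3 and 4 were pooled and counted as 1 sample, because a chi-square test of their cell numbers per class did not pass 0.05 (p = 0.0509), while it did for all other Control pairs. This left 5 Control and 2 UUO samples, for which the smallest two-sided exact permutation p is 0.0476. The 4 libraries over 10000 cells were Controls 5 and 6 and both UUO samples, so the smaller libraries were all Control. In all, 3243 cell barcodes occurred in more than 1 library. Of the podocytes, 5 shared a barcode with a cell of another library, 4 with a PT cell and 1 with a DCT cell, and none of these pairs had the same UMIs and genes.

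Podocytes were rare in every sample. Controls 1, 2, 3 and 4 held 8, 6, 3 and 3 podocytes, Controls 5 and 6 held 57 and 25, and UUO 1 and 2 held 7 and 17. Control 5 alone gave 45.2% of all podocytes. As a share of a sample's cells this was 0.222% in Control 1 (0.0960 to 0.438, exact 95% binomial interval for counting error only), 0.0933% in Control 2 (0.0342 to 0.203) and 0.0966% in the pooled Controls 3 and 4 (0.0354 to 0.210). Control 5 held 0.353% (0.267 to 0.457) and Control 6 held 0.183% (0.118 to 0.270). UUO 1 held 0.0381% (0.0153 to 0.0784) and UUO 2 held 0.131% (0.0766 to 0.210). UUO 1 was the lowest sample, whereas UUO 2 lay inside the Control range, above Control 2 and the pooled Controls 3 and 4.

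**Figure D1:**
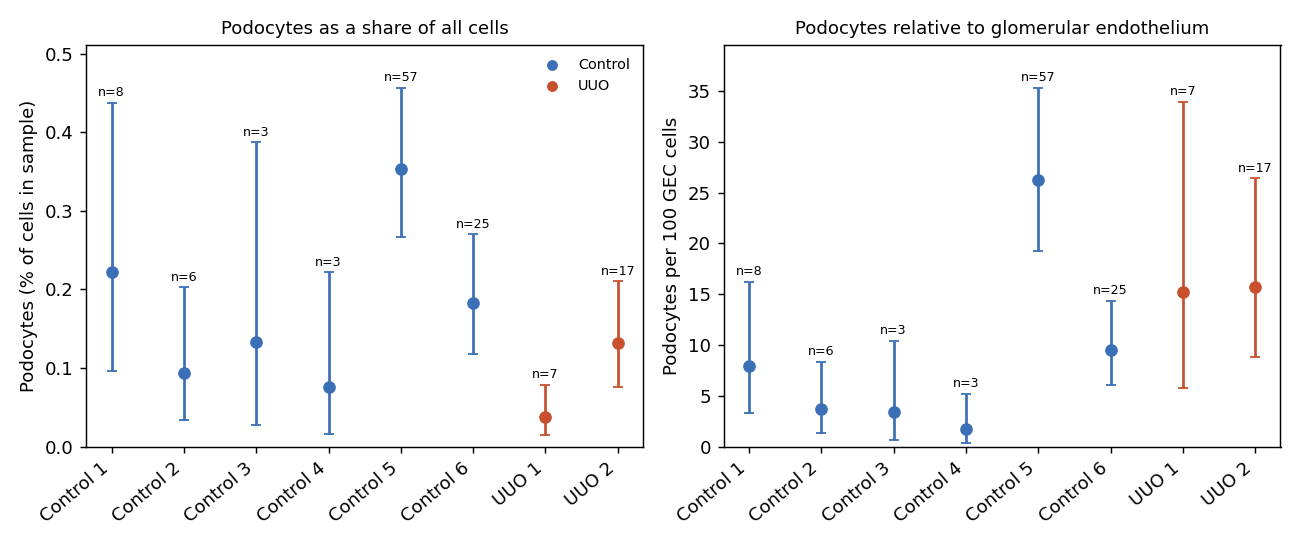
Podocytes in each sample as a percent of all cells (left) and per 100 cells of the class GEC (right); points are samples, bars are exact 95% binomial intervals for counting error, and n is the number of podocytes. UUO 1 is lowest on the left at 0.0381%, while on the right both UUO samples, at 15.2 and 15.7, lie between Control 6 at 9.51 and Control 5 at 26.3.

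Whether obstruction lowered the share of podocytes could not be settled from these samples. The mean share was 0.0848% ± 0.0661 in UUO (SD, n = 2) and 0.190% ± 0.107 in Control (SD, n = 5). Fitted on cell numbers with edgeR's quasi-likelihood test over all 28 classes, the UUO share was 0.435 times the Control share (95% interval 0.109 to 1.73, from a variance shared by all classes), a log2 ratio of -1.20 with a standard error of 1.01 (adjusted p = 0.341). This test called 42.9% of the 28 classes in either direction and 25% of them as lower in UUO, and podocytes were not among them. The median log2 ratio over all classes was 0.21, and podocytes had the 10th lowest. The exact permutation p on the log2 odds was 0.238, with a Benjamini-Hochberg value of 0.317 over the classes. The interval spans both a large loss and a gain, so a p above the threshold does not show that the share was the same.

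The direction stayed below 0 whichever sample was left out, but its size rested on single libraries. Without UUO 1 the log2 ratio was -0.55, without UUO 2 it was -2.33, and without Control 5 it was -0.82. With only the libraries over 10000 cells it was -1.69 (edgeR adjusted p = 0.291).

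Samples of 1 group differed by more than counting error. The 5 Control samples were unequal in their number of podocytes among all cells (chi-square test of these libraries, p = 0.000148), and so were the 2 UUO samples (Fisher's exact test, p = 0.00570). Both tests compare the libraries and not the conditions.

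The share of all cells also moves with the number of tubular and immune cells recovered, so other denominators were used. Outside the 15 immune classes, podocytes made up 0.115% ± 0.0978 of the UUO samples (SD, n = 2) and 0.203% ± 0.112 of the Control samples (SD, n = 5). The log2 odds difference was -0.97 (exact permutation p = 0.286, adjusted 0.476 over 10 podocyte measures), and without UUO 1 it was 0.0064. Outside PT, the proximal tubule class that made up most cells, podocytes were 0.267% ± 0.118 in UUO and 0.527% ± 0.308 in Control. That log2 odds difference was -0.83 (exact permutation p = 0.381, adjusted 0.544). Neither difference exceeded the spread between samples. With the smallest exact p at 0.0476, an adjusted value under 0.05 would have needed all 10 measures at that p, here and for the exact tests that follow.

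The class GEC (the authors' glomerular endothelial cells) shares the glomerulus with the podocytes, and the ratio of the 2 classes does not depend on how many tubular or immune cells were captured. Per 100 GEC cells there were 7.92 podocytes in Control 1 (3.33 to 16.2, exact 95% interval for counting error), 3.75 in Control 2 (1.36 to 8.34), 2.32 in the pooled Controls 3 and 4 (0.842 to 5.11), 26.3 in Control 5 (19.3 to 35.3) and 9.51 in Control 6 (6.04 to 14.3). UUO 1 had 15.2 (5.80 to 33.9) and UUO 2 had 15.7 (8.85 to 26.4). Both UUO samples were thus above 4 of the 5 Control samples and below Control 5.

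Podocytes and GEC did not move apart beyond the spread between samples. The ratio was 15.5 ± 0.370 in UUO (SD, n = 2) and 9.95 ± 9.58 in Control (SD, n = 5), a 2.19-fold higher geometric mean in UUO (log2 difference 1.13, exact permutation p = 0.286, adjusted 0.476). GEC themselves were 0.543% ± 0.414 of all cells in UUO and 2.55% ± 1.07 in Control, a log2 ratio of -2.23 in the edgeR fit (adjusted p = 0.0437). That GEC call was lost without Control 1 (-2.19), Control 2 (-2.24), Control 5 (-2.39), Control 6 (-2.32) or UUO 1 (-1.61), with edgeR adjusted p-values of 0.0533 to 0.237. It was also lost with only the libraries over 10000 cells (-1.60, edgeR adjusted p = 0.172) and with cells of at least 1000 UMIs (-2.29, edgeR adjusted p = 0.0693). With only the libraries over 10000 cells, podocytes per GEC differed by 0.01 on the log2 scale. The Control samples differed widely among themselves in this ratio (chi-square test of these libraries, p = 1.75e-13). The UUO samples, which differed in podocyte share, showed no such difference in the ratio (Fisher's exact test, p = 1).

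Counted against GEC and Endo, the other endothelial class, together, there were 11.4 ± 0.139 podocytes per 100 endothelial cells in UUO (SD, n = 2) and 8.07 ± 8.84 in Control (SD, n = 5). Here too Control 5, at 23.4, stood above both UUO samples, at 11.3 and 11.5, and the other Control samples lay between 2.01 and 7.58.

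The RNA recovered per podocyte was described next. A single podocyte held 492 to 8097 UMIs, with a median of 1948.5, and 308 to 2651 detected genes, with a median of 1021. The whole table runs from 298 to 2998 genes per cell. At its lower edge 3 podocytes had under 350 genes and at its upper edge 2 had more than 2500, so few members lay near either limit. Within every sample the richest podocyte held several times the UMIs of the poorest. In Control 5 they ran from 545 to 8097 UMIs and in UUO 2 from 835 to 6112.

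**Figure D2:**
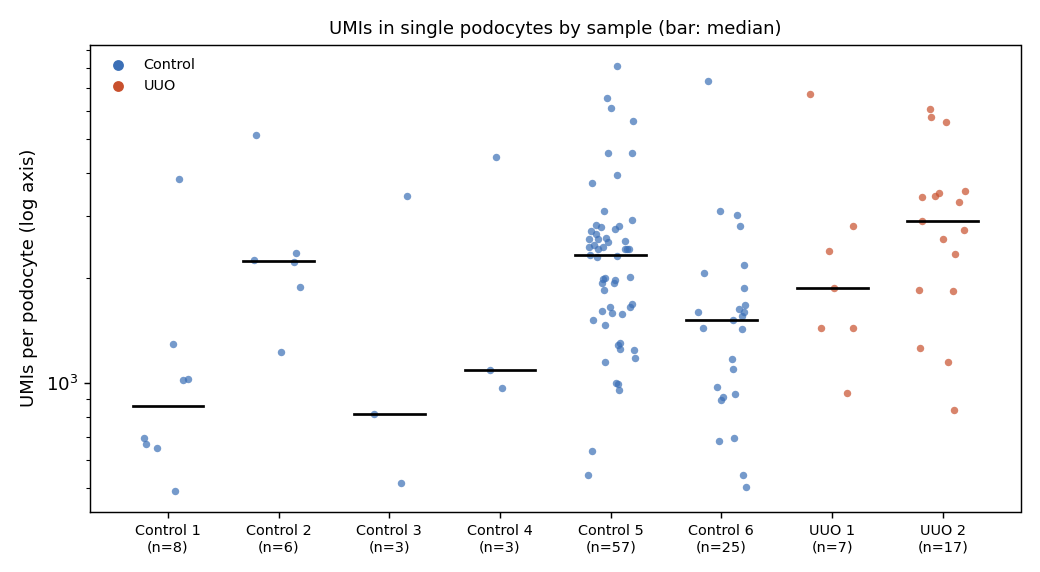
UMIs of every podocyte by sample on a log axis; each point is a cell, black bars are sample medians and n is the number of podocytes. The medians run from 815 in Control 3 to 2920 in UUO 2, and cells of each sample overlap those of the others.

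Sample medians were 857.5 UMIs per podocyte in Control 1, 2233 in Control 2, 1029.5 in the pooled Controls 3 and 4, 2323 in Control 5 and 1516 in Control 6. They were 1867 in UUO 1 and 2920 in UUO 2. UUO 2 was the highest sample and UUO 1 lay within the Control range. The mean of the medians was 2394 ± 745 in UUO (SD, n = 2) and 1592 ± 672 in Control (SD, n = 5), a 1.58-fold difference in geometric means (exact permutation p = 0.238, adjusted 0.476).

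The libraries themselves differed in depth. The median over all cells was 1292 UMIs in Control 1, 1599 in Control 2, 1403 in the pooled Controls 3 and 4, 2944 in Control 5, 1726 in Control 6, 2496 in UUO 1 and 2584 in UUO 2. Set against the median of the other classes in the same sample, podocytes held 0.900 ± 0.135 times their UMIs in UUO (SD, n = 2) and 0.929 ± 0.296 times in Control (SD, n = 5). The log2 difference of these relative values was 0.0040 (exact permutation p = 1). The ratio ran from 0.645 in Control 1 to 1.35 in Control 2, and both UUO samples, at 0.805 and 0.995, lay within that range. Of the 28 classes, limma called 7.14% for a change in UMIs per cell (adjusted p under 0.05), and podocytes were not called (adjusted p = 0.270).

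In RNA content podocytes ranked, on average over samples, below most tubular classes and above the endothelium. Averaged over samples, their median UMIs placed them 19th of the 28 classes at 1821, between macrophages (Macro, 1868) and basophils (Baso, 1752, over 4 samples only). By sample the rank ran from 10th of 27 classes in Control 2 to 26th of 26 in Control 1. PT cells stood at 2041, GEC at 1250 and Endo at 1007. The median podocyte held 1.32 to 2.39 times the UMIs of the median GEC in Controls 2, 5 and 6 and both UUO samples, and 0.956 and 0.804 times in Control 1 and the pooled Controls 3 and 4. Against the median Endo cell it held 0.846 times in Control 1 and 1.08 (pooled Controls 3 and 4) to 3.04 times (UUO 1) in the other samples. These levels also describe how the authors' clustering divides the cells and carry no test.

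The number of genes detected placed podocytes higher than their UMIs did, 11th of 28 classes, with an average of 976 genes over sample medians. PT cells had 866, GEC 768 and Endo 634. This order did not hold in every sample. In Control 1 podocytes ranked 24th of 26 classes and in the pooled Controls 3 and 4 23rd of 28. There they had 0.901 and 0.736 times the genes of the median GEC, and fewer than Endo and PT too. Elsewhere they ranked 7th (Control 2) to 12th (UUO 1) and had more genes than all 3 classes. Sample medians were 548 genes in Control 1, 1223 in Control 2, 614 in the pooled Controls 3 and 4, 1132 in Control 5, 842 in Control 6, 1120 in UUO 1 and 1353 in UUO 2. UUO 2 was again the highest, and UUO 1 was below Controls 2 and 5. The group values were 1237 ± 165 in UUO (SD, n = 2) and 872 ± 301 in Control (SD, n = 5), a 1.48-fold difference in geometric means (exact permutation p = 0.238, adjusted 0.476). For genes per cell limma called 3.57% of the classes, and not podocytes (adjusted p = 0.191).

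At a given number of UMIs podocytes showed more genes than most kidney cells. Among cells with 1000 to 2000 UMIs, the median was 860 genes in 44 podocytes, 826.5 in GEC, 747 in Endo and 651 in PT. Within this range the podocytes also held more UMIs, a median of 1534.5 against 1368.5 in GEC, 1277 in Endo and 1430 in PT. Among cells with 2000 to 4000 UMIs it was 1264 genes in 47 podocytes, 1307 in GEC, 1302 in Endo and 1133 in PT. At 500 to 1000 UMIs the medians were 477 genes in 21 podocytes, 507 in GEC, 484.5 in Endo and 422 in PT. At 4000 to 8000 UMIs they were 1937.5 genes in 12 podocytes, 1967.5 in GEC, 2124 in Endo and 1792 in PT. Podocytes therefore lay above PT in each of these ranges. Their order against the endothelial classes varied, and cells within a range were not matched in UMIs. Median UMIs were 815 in podocytes and 780 in PT at 500 to 1000, and 5708 and 5110 at 4000 to 8000. At 2000 to 4000 they were lower in podocytes, 2609 against 2816.

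**Figure D3:**
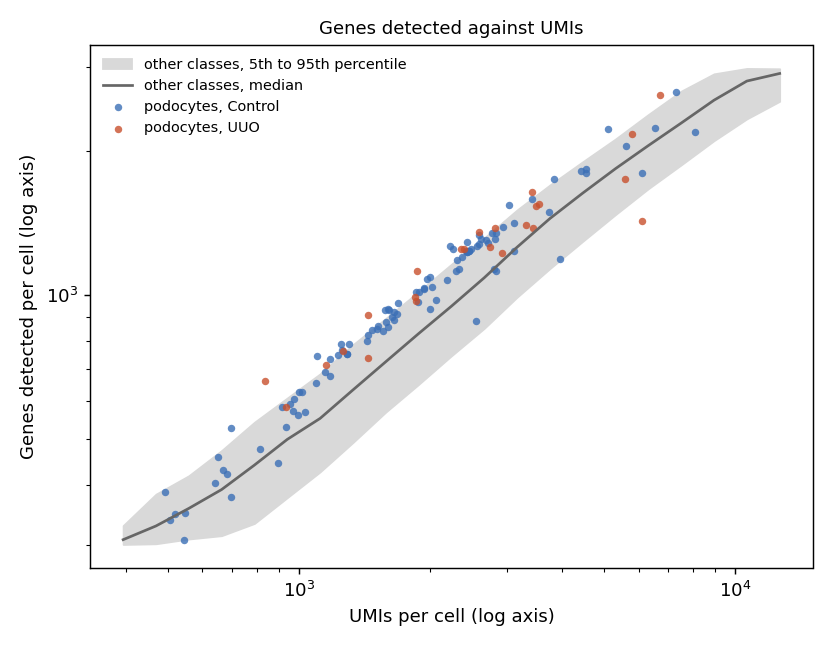
Genes detected against UMIs per cell, both on log axes; points are podocytes, the line is the median of cells of the other classes at that number of UMIs and the grey band their 5th to 95th percentile. Most podocytes of both groups lie above the line, with 117 of 126 above the straight-line fit of their own sample, against 51.7% to 55.97% of the other cells.

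A straight line of log2 genes on log2 UMIs was fitted over the other cells of each sample, and the median podocyte was then read against it. It showed 1.16 times the fitted number of genes in Control 1, 1.18 times in Control 2, 1.08 times in the pooled Controls 3 and 4, 1.24 times in Control 5 and 1.19 times in Control 6. In UUO 1 it showed 1.22 times and in UUO 2 1.18 times the fitted number. All samples were above the line, and both UUO samples lay within the Control range. Matched on all UMIs, podocytes were the third of the 28 classes (1.18 times on average), after GEC (1.26) and Endo (1.19), with PT at 1.003.

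The groups did not differ in genes at matched UMIs beyond the spread between samples, with 1.20 ± 0.0275 in UUO (SD, n = 2) and 1.17 ± 0.0596 in Control (SD, n = 5; log2 difference 0.035, exact permutation p = 0.619, adjusted 0.688). Mitochondrial UMIs come from few genes, so the fit was repeated without them. Matched on non-mitochondrial UMIs instead, an alternative chosen after seeing the data, the median podocyte was still above the line in every sample, at 1.004 times (pooled Controls 3 and 4) to 1.16 times (UUO 2) the fitted number, and 118 of 126 podocytes were above it, against 51.02% to 55.4% of the other cells by sample. In the pooled Controls 3 and 4 it was 3 of 6 podocytes. By this measure podocytes were 6th of the 28 classes at 1.098 times, after GEC, A-IC, CD PC, B-IC and Endo.

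Most podocytes carried few mitochondrial UMIs, with a long upper tail. The median podocyte had 5.98% mitochondrial UMIs, the range was 0.117% to 48.8%, and 47 of 126 were under 5%. Averaged over sample medians the class stood at 5.17%, 18th of 28 and between B lymphocytes (B_Lymphocyte, 5.20%) and monocytes (Mono, 4.67%). GEC stood at 5.51%, Endo at 6.15% and PT at 13.0%. In every sample the median podocyte was below the median PT cell, and the difference ran from -3.16 percentage points in Control 1 to -12.6 in UUO 1.

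Sample medians were 6.44% in Control 1, 4.36% in Control 2, 4.73% in the pooled Controls 3 and 4, 6.17% in Control 5, 6.06% in Control 6, 3.21% in UUO 1 and 5.24% in UUO 2. UUO 1 was the lowest and UUO 2 lay within the Control range. The group values were 4.22% ± 1.43 in UUO (SD, n = 2) and 5.55% ± 0.939 in Control (SD, n = 5), a difference of -1.33 percentage points (exact permutation p = 0.238, adjusted 0.476). With only cells under 20% mitochondrial UMIs, a filter on the measured value itself, it was -2.06 percentage points. That gave the smallest exact permutation p, 0.0476, but an adjusted p of 0.397. limma called 0 of the 28 classes for mitochondrial percent (0% called, and 0 classes at an unadjusted p under 0.05), and podocytes had an adjusted p of 0.997 there (0.382 unadjusted).

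The sign of this difference depended on the summary used. It was negative with sample medians but positive with means over podocytes (2.77 percentage points) and with all podocyte UMIs pooled. Over all podocyte UMIs of a sample, 6.74% in UUO 1 and 17.2% in UUO 2 were mitochondrial, against 2.91% (pooled Controls 3 and 4) to 12.4% (Control 5) in Control, and the UUO minus Control difference was 4.99 percentage points (exact permutation p = 0.238). In UUO 2 the 2 podocytes with the most mitochondrial UMIs held 59.8% of them, and without those 2 cells the pooled value was 8.89%. In UUO 1, with 7 podocytes, they held 75.5%, and the pooled value without them was 3.08%. The corresponding 2 cells held 28.3% in Control 5, 42.2% in Control 1 and 42.5% in Control 6. They held 51.7% in Control 2 and 59.3% in the pooled Controls 3 and 4, near the value of UUO 2. Without them the pooled value in Control 5 was 9.90%. With these 2 cells left out of every sample, a choice made after seeing the data, the group means were 5.99% in UUO and 5.32% in Control, a difference of 0.67 percentage points. That removed 2 of 57 podocytes in Control 5 but 2 of 6 in Control 2 and 2 of 7 in UUO 1. The samples were therefore not trimmed alike.

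**Figure D4:**
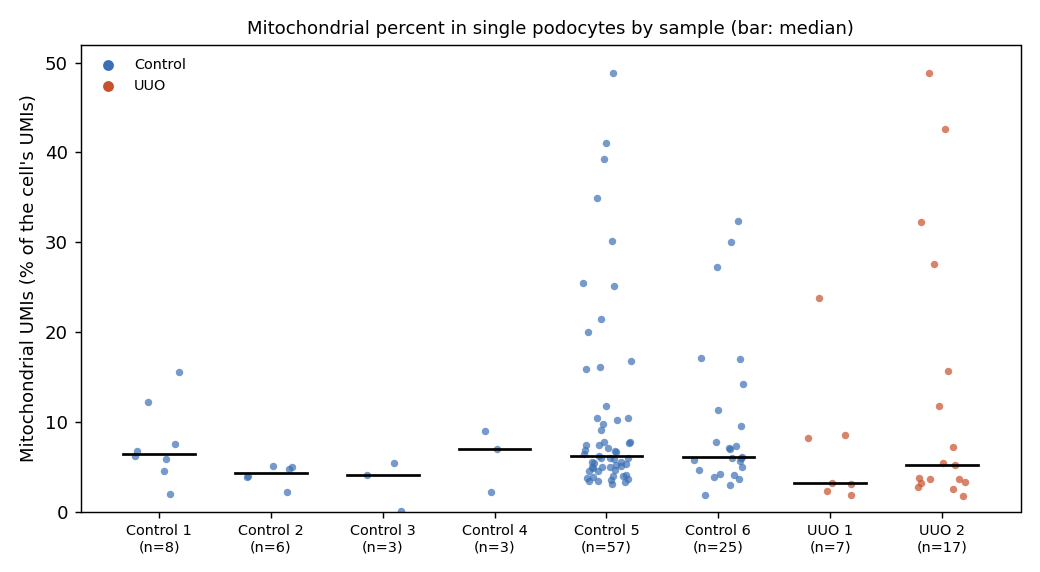
Percent of mitochondrial UMIs in every podocyte by sample; each point is a cell, black bars are sample medians and n is the number of podocytes. Medians lie between 3.21% in UUO 1 and 7.04% in Control 4, and all 17 podocytes at or above 20% are in Controls 5 and 6 and UUO 1 and 2.

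The upper tail was made of 17 podocytes (13.5%) with at least 20% mitochondrial UMIs. Control 5 held 9 of them, Control 6 held 3, UUO 1 held 1 and UUO 2 held 4. In the 4 libraries over 10000 cells these were 17 of 106 podocytes, or 16.04% (exact 95% binomial interval 9.63 to 24.4). In the 4 smaller libraries, Controls 1 to 4, they were 0 of 20 (exact 95% binomial interval 0 to 16.8). Both intervals pool cells of 4 libraries and give counting error only, without the spread between libraries. Of the pooled cells of other classes, 33.0% were at or above 20% in the large libraries and 21.3% in the small ones, and among GEC 18.1% and 4.23%. This gap was uneven between libraries. It was 35.9% of other cells in Control 5 and 43.4% in Control 6, but 27.8% in UUO 1 and 25.6% in UUO 2, the last below Control 3. Among GEC the same 4 libraries had 19.4%, 22.4%, 4.35% and 11.1%. The small libraries had 3.45% (Control 3) to 5.23% (Control 4) of GEC at or above 20%. The part of library size in the podocyte tail was not tested.

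Podocytes of the tail covered a wide range of RNA content. In UUO 2 all 4 had at least 2920 UMIs, while in Control 5 they spanned 545 to 8097 and included the podocyte with the fewest genes of all, 308. Their median was 2819 UMIs, against 1931 in the 89 podocytes under 20% of the same 4 large libraries. Without the mitochondrial UMIs the medians were 1907 and 1813. Of the 17, 9 lay above the line of genes on UMIs in their sample, a share near that of the other cells (51.7% to 55.97% by sample), and all 17 did so when mitochondrial UMIs were left out. The Spearman correlation of UMIs with mitochondrial percent across all 126 podocytes, which share libraries and depth, was -0.073. Within libraries it was 0.11 in Control 5, -0.15 in Control 6 and 0.34 in UUO 2.

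In the authors' embedding, a map of similarity between the 25200 cells outside PT with coordinates that have no unit, podocytes formed a small separate island. All 126 lay within 0.280 of their median position, and the median distance from it was 0.0621. Among the 27 classes mapped this was the second smallest spread, after basophils at 0.0603 and before pDC at 0.0702, against 0.326 for Endo and 0.558 for GEC. Basophils, pDC and podocytes were also the smallest classes, with 120, 120 and 126 cells, against 338 Endo and 1154 GEC. The part of class size in this spread was not tested. The nearest cell outside the island, an Endo cell, was 2.97 away. By class medians the nearest classes were Endo (3.50), Trans IC (4.50) and A-IC (4.80), followed by GEC (5.16). Distances across such a map are not a measure of similarity in expression.

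**Figure D5:**
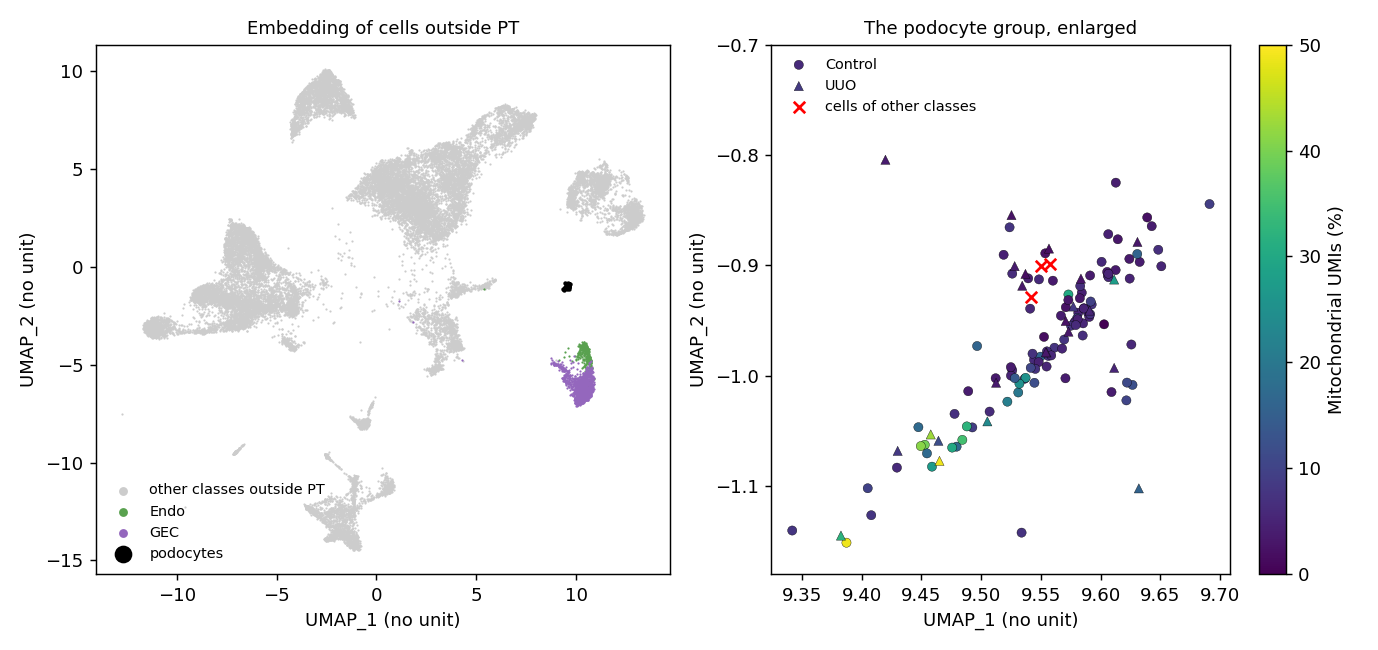
Left, the authors' embedding of cells outside PT, with podocytes in black and both endothelial classes in colour; right, the podocyte island enlarged, with cells coloured by mitochondrial percent. Podocytes of both groups share 1 island, cells with a high mitochondrial percent lie towards its lower end, and crosses mark the 3 cells of other classes within it.

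Podocytes of both groups shared this island. The mean positions of the UUO and Control samples were 0.0145 apart (one-sided exact permutation p = 0.571, adjusted 0.688). Of each podocyte's 10 nearest cells, 94.9% ± 1.13 were podocytes in UUO (SD, n = 2) and 98.1% ± 2.61 in Control (SD, n = 5; exact permutation p = 0.238, adjusted 0.476), and for 113 of the 126 all 10 were. Only 3 cells of other classes, from Controls 5 and 6, lay in the island, so this share reflects closeness to those 3 cells alone. Neighbours came from all samples, so the sample values are not independent, and the test cannot tell whether the groups differ. The authors named classes and drew the map from the same cells, so this describes their grouping and does not check it.

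Within the island, cells with more mitochondrial UMIs lay lower on the second axis. Across the 126 podocytes the Spearman correlation between mitochondrial percent and this coordinate was -0.60. Within libraries it was -0.57 in Control 5 (57 cells), -0.58 in Control 6 (25 cells) and -0.75 in UUO 2 (17 cells). The 17 podocytes at or above 20% had a median coordinate of -1.05 and the other 109 a median of -0.95. With the first axis the correlation of mitochondrial percent was -0.36 over all podocytes, and -0.49, -0.55 and -0.19 within Control 5, Control 6 and UUO 2. The correlation of UMIs with the second axis was -0.10 over all podocytes, and -0.25, -0.15 and -0.35 within these 3 libraries.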

How the data were processed

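Whole-kidney 10x Genomics single-cell 3′ libraries were analysed from the deposited cell table. Cell Ranger 6.0.1, Seurat 4.0.1 and the build mm10 are named in the submitters' processing notes, and cell filters, class calling and embedding settings are not stated in the material used here. Per the file headers the deposited values are UMIs and genes per cell (raw counts, not normalized), the mitochondrial percent of UMIs, and embedding coordinates, a score with no unit, made by the authors. No doublet caller was run on top of what the authors did, and 0 per-sample columns were left out.

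Groups came from the sample titles. Podocyte shares were tested with edgeR 4.0.16 (quasi-likelihood, sample totals as library size, R 4.3.3) on cell numbers of all 28 classes, with Benjamini-Hochberg adjustment and a threshold of 0.05. Its variance was shared over classes (140 degrees of freedom), so the interval does not measure podocytes' own spread. edgeR was preferred to a limma fit on log2 odds, whose shared variance would understate the counting error of a class this rare, and limma 3.58.1 was kept as an alternative. The other 10 measures were compared by exact permutation over samples with at least 5 podocytes where medians were used, and log2 odds had 0.5 cells added. Alternatives included DESeq2 1.42.0 size factors, TMM scaling and leaving out each sample. Functions were tested on simulated data. Depth limits each share: 3 cells in the smallest sample make up 0.133% of it. The classes named were GEC, Endo and PT, the 3 nearest in the embedding, and those next to podocytes in UMIs and mitochondrial percent. Members, classes and tests were chosen with earlier results of these data known.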

Additional observations from a re-analysis of the deposited data

How the results depend on the processing

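Over the 11 measures, 181 pairs of a measure and an alternative setting were run (1 of them had no test), and 164 of these kept the direction. The 13 pairs for embedding position compare a distance without sign and could not change direction. Some settings also repeat 1 calculation. For UMIs per podocyte, 8 separate samples and leaving out Control 3, Control 4 or both all gave 0.53. The 164 are therefore not separate checks. No pair passed an adjusted p of 0.05, but for many pairs this was fixed in advance. For 10 of the measures the tests were mainly exact permutations, whose smallest p was 0.0476 with 5 Control and 2 UUO samples. With fewer samples it lay above 0.05 even before adjustment, so the lack of a call there carries no information. Leaving out each sample in turn gave log2 ranges of -2.33 to -0.55 for the share of all cells (edgeR), 0.91 to 1.59 for podocytes per GEC, -1.26 to -0.39 outside PT, -1.94 to 0.0064 outside immune cells, 0.34 to 0.99 for UMIs, -0.15 to 0.16 for UMIs relative to the other classes, 0.42 to 0.71 for genes and 0.0054 to 0.058 for genes at matched UMIs, and -2.34 to -0.31 percentage points for mitochondrial percent. Without Control 3 or Control 4, and with 8 separate samples, the remaining samples of 3 podocytes fell under the minimum of 5 and gave no medians.

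The relative UMI difference, 0.0040 with all samples, changed sign to -0.10 with 8 separate samples or without Controls 3 and 4 (added after the data were seen), -0.16 with cells of at least 1000 UMIs, -0.11 with cells under 20% mitochondrial UMIs, -0.14 among libraries over 10000 cells and -0.063 with the replicate block. Genes at matched UMIs changed sign to -0.023 with cells of at least 1000 UMIs, -0.021 among libraries over 10000 cells and -0.20 as log2 genes per UMI, a measure that falls as UMIs rise. Mitochondrial percent changed sign with means over cells (2.77 percentage points) or pooled UMIs (4.99, and 0.67 without the 2 podocytes of each sample with the most mitochondrial UMIs, added after the data were seen). For the remainder the cause was not tested.

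For the share of all cells, -1.20 with sample totals, TMM scaling gave -1.68 and DESeq2 size factors -1.67 (edgeR). Sample numbers 1 and 2 occur in both groups but no label ties them to a shared animal or day. With the number as a replicate block the share was -0.98 (edgeR adjusted p 0.658) and podocytes per GEC 1.47. The embedding position has no value with the block, since a distance was compared.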

Other observations

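Within the podocyte island lay 3 cells of other classes, a CNT cell of Control 6 (4264 UMIs, 23.8% mitochondrial), a DCT cell of Control 5 (748 UMIs, 10.8%) and a Profibrotic Tubules cell of Control 5 (513 UMIs, 5.26%). They were chosen after their positions were seen. The island was bounded by the farthest podocyte, so it holds every podocyte by definition.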
